A study of Homo sapiens with 15 samples.

Results

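The 10 genes described here form the core of the ATF4 network, the transcription factors and close targets of the integrated stress response. They are the transcription factors ATF4, ATF3, ATF5, DDIT3, CEBPB and CEBPG and the targets TRIB3, CHAC1, ASNS and SESN2. They were listed by name as members of the response and found by symbol in a table of 55773 genes. All 10 were measured and all 10 passed the filter on low values in both experiments. The study profiled poly(A) RNA of HEK293, an established embryonic kidney line, in 15 libraries, 3 in each of 5 groups. ZC3H7A and ZC3H7B are a pair of related CCCH zinc-finger proteins that bind RNA, and the study asked how they affect mRNA in a codon-dependent way. In the first experiment, Flp-In T-REx 293 cells expressed Flag/HA-tagged ZC3H7A (called ZC3H7A cells below), Flag/HA-tagged ZC3H7B (ZC3H7B cells) or the Flag/HA control (control cells). All 3 of these groups carried a transgene, grew in zeocin and blasticidin and were labelled as treated with doxycycline, given at 1 µg/mL for 24 h, and their RNA came from hypotonic lysates. Cells of the second experiment, called DD, carried a knockout of ZC3H7A together with an shRNA to ZC3H7B, and those called Parental were wild type with a control shRNA. Both were selected with puromycin at 5 µg/mL and released from it 2 passages before collection. The library protocols of both experiments differ, so values were compared within each experiment and not between them. The sources used here do not say whether DD is 1 clone, or whether the 3 DD and 3 Parental libraries came from separate cultures. Labels of the overexpression and control libraries number the replicates and do not say this either. The p-values of both experiments therefore measure the spread between libraries, which may be technical.

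In the integrated stress response, kinases that sense amino-acid shortage, unfolded proteins, viral RNA or low heme phosphorylate the initiation factor eIF2, which lowers general translation while the ATF4 mRNA is translated more. ATF4 is a bZIP factor that pairs with C/EBP proteins on composite C/EBP-ATF response elements and switches on amino-acid transporters, biosynthetic enzymes and tRNA synthetases. The targets include its own partners and regulators: DDIT3 (also called CHOP), ATF3 and ATF5 extend the response, CEBPB and CEBPG are C/EBP partners, and the pseudokinase TRIB3 feeds back on it.

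Promoter sequences were searched for the core of the C/EBP-ATF response element, TGATGNAA, on both strands, in RefSeq windows of GRCh38.p14 that run from 250 bases before to 50 bases after each start. All 10 genes had a window. The core occurred in 4 of the 10 genes, against 4.46% of 27305 genes with a window. Windows of 60 bases around those cores are shown because ATF4 and C/EBP proteins are known to meet on this element. They run 5′ to 3′ on the gene's strand with the core in capitals.
ATF3 (chr1:212565190-212565249, plus strand): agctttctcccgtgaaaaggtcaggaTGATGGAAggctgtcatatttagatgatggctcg
CEBPG (chr19:33374045-33374104, plus strand): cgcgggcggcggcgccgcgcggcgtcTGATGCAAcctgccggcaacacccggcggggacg
CHAC1 (chr15:40953236-40953295, plus strand): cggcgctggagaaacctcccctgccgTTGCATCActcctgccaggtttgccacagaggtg
ASNS (chr7:97872443-97872502, minus strand): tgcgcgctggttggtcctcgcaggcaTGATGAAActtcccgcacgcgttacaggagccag
The first base of the core lies at -191 in ATF3, at -42 in CEBPG, at -209 in CHAC1, where it is read on the opposite strand, and at -68 in ASNS. These positions are counted from the start to which the window belongs. The palindromic ATF/CREB site TGACGTCA, which cannot share bases with the core, was in 0 of the 10 genes and in 2.25% of all genes with a window. A match of letters is a description of these windows and not evidence of binding.

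The libraries held 45.5 to 57.6 M reads in the first experiment and 12.2 to 15.5 M in the second. The least covered member value, CHAC1 in DD replicate 3, rested on 35 reads. Values are read counts divided by a size factor per library (normalized counts), and fold changes are on the scale of log2(value + 1) with limma's standard error. ZC3H7A was 11192 ± 1492 in ZC3H7A cells against 3259 ± 101.9 in control cells, and ZC3H7B was 27142 ± 814.7 in ZC3H7B cells against 5938 ± 113.8 in control cells (SD, n = 3 each). RNA of the other paralog shifted too. ZC3H7B was 8252, 8288 and 7390 in ZC3H7A cells, against 5951, 5818 and 6044 in control cells. ZC3H7A was 1935, 2049 and 2113 in ZC3H7B cells, against 3180, 3374 and 3223 in control cells. The part of these shifts in the results was not tested. ZC3H7B was 1084 ± 84.09 in DD and 6463 ± 505.3 in Parental, whereas ZC3H7A RNA did not pass the test there (1658 ± 106.2 in DD, 1599 ± 78.7 in Parental; adjusted p = 0.666), and gene-level reads do not show whether a knocked-out gene makes protein. ZC3H7A replicate 3 and Parental replicate 3 stood apart: their counts differed from those of the other libraries of their group by 11.1 to 23.0 times the sampling noise (chi-square per degree of freedom), against 1.80 to 8.54 for all other pairs. Of 7 genes that HEK293 cells are known to express, 7 had a mean of at least 10 in the first experiment and 6 in the second. Summed leukocyte and erythroid markers (5 genes) were 309.1 to 329.8 in ZC3H7A, 323.6 to 356 in ZC3H7B and 845.8 to 888.4 in control libraries, mostly from HBB, and 64.4 to 84.3 in DD and 10.9 to 17.3 in Parental, where PTPRC, CD3E and HBB were at 0. Summed fibroblast markers (6 genes) were 229.2 to 259.7 in ZC3H7A, 265.1 to 307.9 in ZC3H7B, 155.5 to 191 in control, 235.9 to 253.5 in DD and 193.2 to 307.2 in Parental libraries, and no endothelial marker averaged 10 or more in the first experiment. The part of these markers in the results was not tested.

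Overexpression of either protein came with higher RNA of most of the network. In ZC3H7A cells, 8 of the 10 genes rose, ATF3 fell and SESN2 did not pass the test (Benjamini-Hochberg adjusted p under 0.05). In ZC3H7B cells all 10 rose. Changes were common in both comparisons: 34.7% of 17669 tested genes rose and 41.2% fell with ZC3H7A, and 32% rose and 37.6% fell with ZC3H7B. The libraries of the groups did not overlap for 9 of the 10 genes with ZC3H7A, against 77.9% of all tested genes, and for 10 of 10 with ZC3H7B, against 77.1%. The median log2 fold change of the 10 was 0.86 with ZC3H7A and 0.70 with ZC3H7B, beside -0.07 and -0.06 over all tested genes. Both comparisons use the same 3 control libraries. In bulk RNA, a change in every cell and a change in the share of cells that express a gene cannot be told apart.

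**Figure D1:**
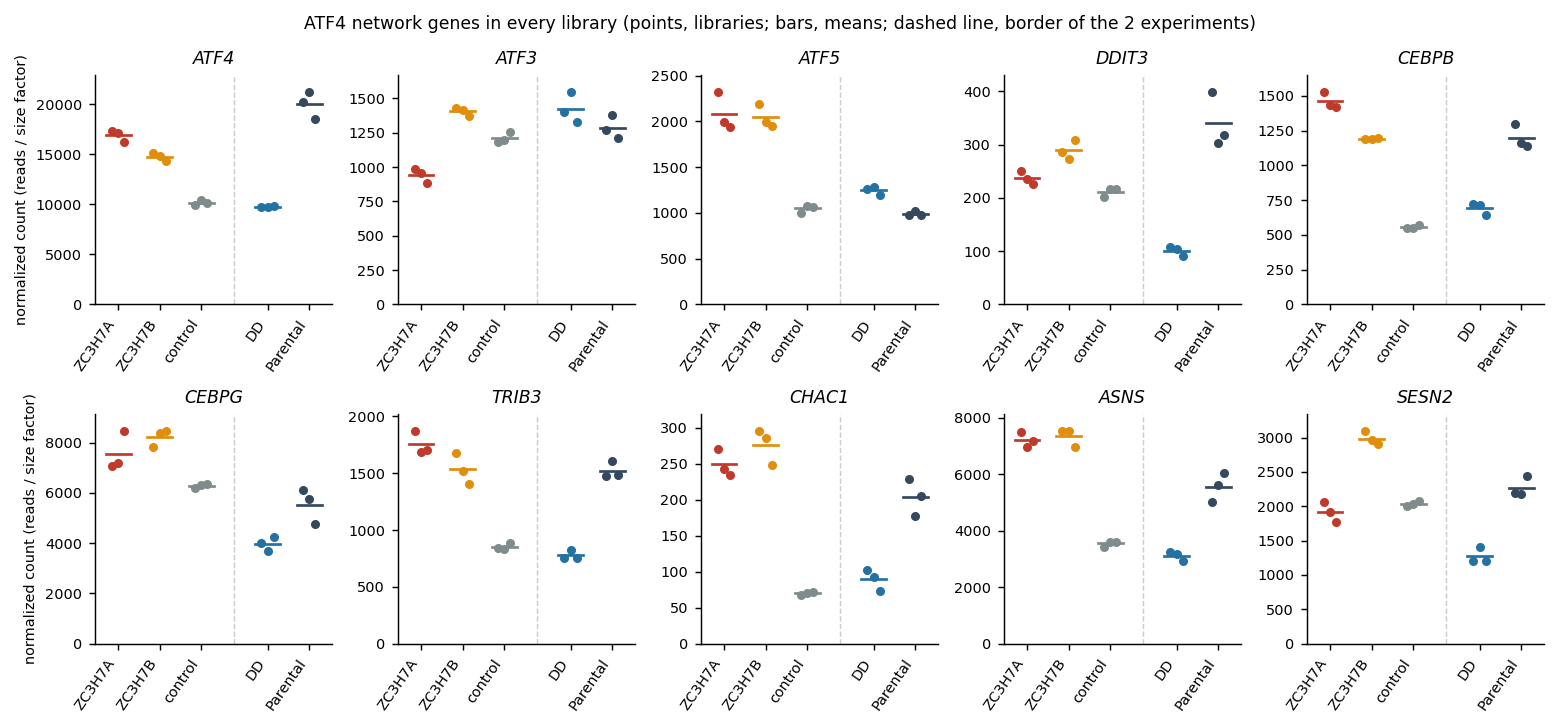
Normalized counts (reads divided by the size factor, linear axis from 0) of the 10 genes in each library. Points are libraries, bars are group means, and a dashed line separates the experiments. ATF4 lay between 14354 and 17383 in the ZC3H7A and ZC3H7B libraries and between 9970 and 10451 in the control libraries, and in the other experiment between 9707 and 9854 in DD and between 18507 and 21288 in Parental.

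ATF4 itself, the hub of the network, rose with both proteins. Its normalized counts were 17383, 17154 and 16224 in ZC3H7A cells, 15132, 14887 and 14354 in ZC3H7B cells and 9970, 10451 and 10130 in control cells. The 3 groups did not overlap, with ZC3H7A cells highest and control cells lowest. The change was 1.66-fold with ZC3H7A (log2 0.73, SE 0.0394, limma adjusted p = 1.38e-08) and 1.45-fold with ZC3H7B (log2 0.54, SE 0.0394, adjusted p = 2.45e-07). ATF4 with ZC3H7A ranked above 91.1% of tested genes by fold change, and with ZC3H7B above 89.7%. Only RNA was measured, and the level of ATF4 protein is not known from these files. The processed pseudogenes ATF4P3 and ATF4P4, which resemble the ATF4 mRNA, were at 17.5 and 31.1 in ZC3H7A cells, 20.4 and 31.1 in ZC3H7B cells and 13.0 and 20.2 in control cells, so few reads were assigned to them in this experiment.

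Among the C/EBP partners, CEBPB changed most. CEBPB had 1531, 1433 and 1423 normalized counts in ZC3H7A cells, 1192, 1191 and 1197 in ZC3H7B cells and 550.9, 548.4 and 570.7 in control cells. All libraries of both overexpressions lay above 2 times the control mean, with a log2 fold change of 1.39 (SE 0.0463) for ZC3H7A and 1.10 (SE 0.0463) for ZC3H7B. CEBPG, a short C/EBP protein that lacks a classical activation domain and pairs with other bZIP factors, had 7052, 7168 and 8446 in ZC3H7A cells, 7829, 8396 and 8465 in ZC3H7B cells and 6205, 6314 and 6355 in control cells. It rose by a smaller step, 1.20-fold with ZC3H7A (log2 0.26, SE 0.0617, adjusted p = 0.00213) and 1.31-fold with ZC3H7B (log2 0.39, SE 0.0617, adjusted p = 1.3e-04). ZC3H7A replicate 3, one of the libraries that stood apart, was the highest of its group. Without it CEBPG still rose with ZC3H7A (log2 0.18, adjusted p = 3.85e-04), and when all libraries were scaled to equal totals it no longer passed (log2 0.15, adjusted p = 0.0549).

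The ATF members of the network differed from one another. ATF5, a stress-induced bZIP factor whose mRNA is also under upstream open reading frame control, had 2326, 1988 and 1938 in ZC3H7A cells, 2189, 1998 and 1951 in ZC3H7B cells and 1004, 1078 and 1064 in control cells. Both overexpressions overlapped each other and lay apart from the control, and ATF5 rose 1.98-fold with ZC3H7A (adjusted p = 1.16e-07) and 1.95-fold with ZC3H7B (adjusted p = 2.31e-07). The annotated ATF5 locus overlaps NUP62, a nuclear pore gene on the other strand, which rose as well (log2 0.77 with ZC3H7A, 0.79 with ZC3H7B). No source used here gives the strand setting of the counting, so reads of both genes cannot be told apart where they overlap. ATF3, which can dampen or prolong stress transcription, had 982.6, 956.2 and 884.7 in ZC3H7A cells, 1429, 1413 and 1370 in ZC3H7B cells and 1179, 1200 and 1253 in control cells. The control libraries thus lay between the overexpressions: ATF3 fell with ZC3H7A (log2 -0.36, SE 0.0509, adjusted p = 3.48e-05) and rose with ZC3H7B (log2 0.21, SE 0.0509, adjusted p = 0.0025). The rise with ZC3H7B was lost (log2 0.06, adjusted p = 0.198), and the fall with ZC3H7A was -0.54, once the trend of fold change with codon composition, described below, was removed.

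DDIT3, the pro-apoptotic bZIP factor CHOP, changed little with ZC3H7A and more with ZC3H7B. It had 251.4, 235.6 and 226.8 normalized counts in ZC3H7A cells, 286.9, 273.3 and 308.8 in ZC3H7B cells and 202.6, 216.4 and 216.3 in control cells. The groups did not overlap. The rise was 1.37-fold with ZC3H7B (log2 0.45, SE 0.0700, adjusted p = 1.1e-04) and 1.12-fold with ZC3H7A (log2 0.17, SE 0.0700, adjusted p = 0.0461). The ZC3H7A call sat at the threshold: it was lost without the filter on low values (adjusted p = 0.0777), with equal library totals (log2 0.06, adjusted p = 0.416), with only both groups in the fit (adjusted p = 0.0619), and on leaving out ZC3H7A replicate 1 (adjusted p = 0.151) or 2 (0.0698) or control replicate 1 (0.148), 2 (0.0676) or 3 (0.0678). DDIT3 lies on the minus strand of chromosome 12 and overlaps the annotated spans of MARS, a tRNA synthetase with 11486 normalized counts in ZC3H7A cells, 10817 in ZC3H7B cells and 6828 in control cells, and of MBD6. MARS rose too (log2 0.75 with ZC3H7A, 0.66 with ZC3H7B), and what part of the DDIT3 values its reads make up was not tested.

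The targets CHAC1, ASNS and TRIB3 rose by more than ATF4 with each protein. CHAC1, which breaks down glutathione, had 270.7, 243.1 and 234.5 in ZC3H7A cells, 295.7, 285.7 and 248.5 in ZC3H7B cells and 67.83, 70.98 and 72.46 in control cells. Its lowest overexpression library was more than 3 times the highest control library, and by fold change CHAC1 ranked above 99.3% of tested genes with ZC3H7A and above 99.8% with ZC3H7B. ASNS, the asparagine synthetase that is a standard readout of amino-acid starvation, had 7497, 6964 and 7193 in ZC3H7A cells, 7540, 7543 and 6969 in ZC3H7B cells and 3442, 3617 and 3599 in control cells. ASNS rose 2.03-fold with ZC3H7A and 2.07-fold with ZC3H7B, and no overexpression library came near a control library. The copy ASNSP1 was at 116.9 in ZC3H7A cells, 276.7 in ZC3H7B cells and 38.6 in control cells, small beside ASNS. TRIB3 had 1872, 1689 and 1704 in ZC3H7A cells, 1677, 1523 and 1404 in ZC3H7B cells and 837.9, 834 and 889.1 in control cells. It rose 2.05-fold with ZC3H7A (log2 1.04, SE 0.0664, adjusted p = 5.23e-08) and 1.79-fold with ZC3H7B (log2 0.84, SE 0.0664, adjusted p = 4.48e-07).

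SESN2, a leucine sensor that restrains mTORC1, behaved differently with each protein. It had 2056, 1910 and 1770 in ZC3H7A cells, 3097, 2958 and 2900 in ZC3H7B cells and 2000, 2031 and 2078 in control cells. The ZC3H7A and control libraries overlapped, whereas every ZC3H7B library lay above every control library. SESN2 rose 1.47-fold with ZC3H7B (log2 0.55, SE 0.0543, adjusted p = 2.68e-06), while with ZC3H7A the log2 fold change was -0.09 (SE 0.0543, 95% interval -0.21 to 0.03, adjusted p = 0.137). The ZC3H7A value passed the test as a fall with equal library totals (log2 -0.20, adjusted p = 0.00237), without ZC3H7A replicate 1 (-0.15, adjusted p = 0.0234) and with the codon trend removed (-0.47, adjusted p = 5.47e-08). With that trend removed the rise of SESN2 with ZC3H7B was 0.26.

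Tested against each other, ZC3H7A and ZC3H7B cells differed in 6 of the 10 genes. ATF4, CEBPB and TRIB3 were higher with ZC3H7A, and ATF3, DDIT3 and SESN2 were higher with ZC3H7B, where 23.9% of tested genes were higher and 20.4% lower with ZC3H7A. Libraries of these groups did not overlap for 6 of the 10 genes and for 49.2% of all tested genes. SESN2 (log2 -0.64, SE 0.0543, adjusted p = 1.9e-06) and ATF3 (-0.58, SE 0.0509, adjusted p = 2.67e-06) differed most of the 10, and DDIT3 differed by less (-0.28, SE 0.0700, adjusted p = 0.00614). The positive differences were 0.29 for CEBPB (SE 0.0463, adjusted p = 2.98e-04), 0.19 for ATF4 (SE 0.0394, adjusted p = 0.00177) and 0.20 for TRIB3 (SE 0.0664, adjusted p = 0.031). TRIB3 lost its call with TMM scaling (adjusted p = 0.0685), with edgeR (0.0731), with only these groups in the fit (0.0623), and without ZC3H7A replicate 1 (0.126) or ZC3H7B replicate 2 (0.085) or 3 (0.14). CEBPB lost its call once the codon trend was removed (log2 0.10, adjusted p = 0.0543). The other 4 genes did not pass, with 95% intervals of -0.13 to 0.18 for ATF5, -0.26 to 0.01 for CEBPG, -0.33 to 0.04 for CHAC1 and -0.12 to 0.07 for ASNS. CEBPG passed as lower with ZC3H7A without ZC3H7A replicate 3 (log2 -0.21, adjusted p = 1.74e-04), and CHAC1 did with the codon trend removed (-0.21, adjusted p = 0.024).

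**Figure D2:**
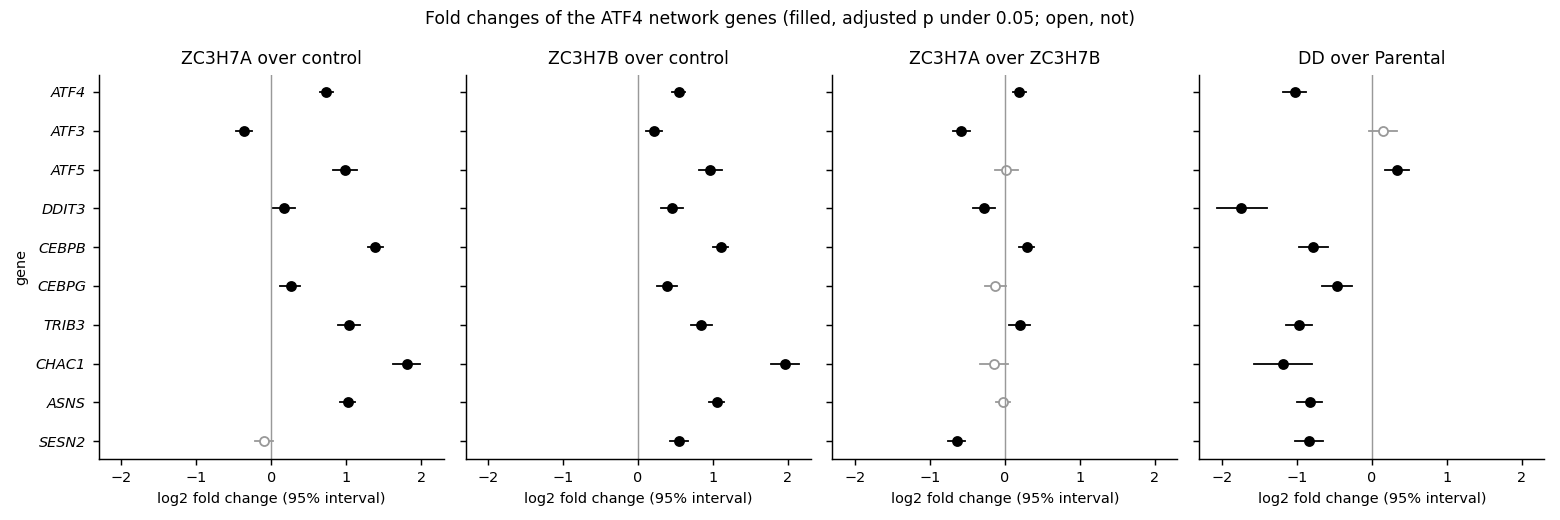
Log2 fold changes of the 10 genes in the 4 comparisons, with 95% intervals from limma. Filled points passed an adjusted p under 0.05 and open points did not. CHAC1 lay farthest right with each protein (1.81 with ZC3H7A, 1.96 with ZC3H7B) and DDIT3 farthest left in DD (-1.74).

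Most of the network was lower in DD, the cells with the ZC3H7A knockout and the shRNA to ZC3H7B, in which only the ZC3H7B RNA was seen to fall. In DD against Parental, 8 of the 10 genes fell, ATF5 rose and ATF3 did not pass the test. Over all 18491 tested genes, 14.8% fell and 14.7% rose. DD and Parental libraries did not overlap for 9 of the 10 genes, against 43% of all tested genes. The median log2 fold change of the 10 genes was -0.83, beside 0.01 over all tested genes. Counts of 1 rise and 8 falls were found under each of the 15 alternative settings and left-out libraries, including without Parental replicate 3.

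DDIT3 and CHAC1 fell furthest. DDIT3 had 107.9, 104.2 and 90.57 normalized counts in DD and 399.7, 303.2 and 318.1 in Parental, a log2 fold change of -1.74 (SE 0.153, limma adjusted p = 9.56e-06). Every Parental library was above every DD library, and only 1.1% of tested genes had a lower fold change than DDIT3. MARS, which overlaps it, was 5032 in DD and 8907 in Parental (log2 -0.82). CHAC1 had 102.3, 92.4 and 73.72 in DD and 228.7, 177.5 and 204.8 in Parental (log2 -1.18, SE 0.178, adjusted p = 4.58e-04). Few reads stand behind these values, and CHAC1 had the widest standard error of the 10.

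ATF4 had 9773, 9707 and 9854 in DD and 20234, 21288 and 18507 in Parental (log2 -1.03, SE 0.0674, adjusted p = 9.76e-07). The groups were far apart, and the coefficient of variation was 0.754% among DD and 7.02% among Parental libraries. The pseudogenes ATF4P3 (281 in DD, 572.6 in Parental) and ATF4P4 (98.4 in DD, 204.1 in Parental) had more assigned reads than in the first experiment and moved the same way (log2 -1.02 and -1.05). Which of these reads came from the ATF4 mRNA was not tested.

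The targets TRIB3, ASNS and SESN2 fell by similar steps. TRIB3 had 753.7, 824.5 and 752 in DD and 1472, 1605 and 1488 in Parental (log2 -0.97, SE 0.0799, adjusted p = 5.64e-06). ASNS had 3253, 3168 and 2926 in DD and 5020, 5608 and 6037 in Parental (log2 -0.83, SE 0.0789, adjusted p = 1.63e-05). SESN2 had 1202, 1410 and 1207 in DD and 2198, 2172 and 2442 in Parental (log2 -0.84, SE 0.0852, adjusted p = 2.78e-05). None of these DD and Parental groups overlapped, SESN2 included, which had not passed with ZC3H7A.

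Of the C/EBP partners, CEBPB had 721.5, 717.9 and 646.7 in DD and 1297, 1159 and 1137 in Parental (log2 -0.78, SE 0.0880, adjusted p = 5.62e-05). CEBPG had 3997, 3696 and 4230 in DD and 6108, 5744 and 4751 in Parental (log2 -0.47, SE 0.0924, adjusted p = 0.00257). Parental replicate 3 was the lowest of its group for CEBPG, and without it the log2 fold change was -0.58. ATF5 and ATF3 did not follow the rest. ATF5 had 1263, 1279 and 1194 in DD and 972.5, 1018 and 973.8 in Parental, a rise of 1.26-fold (log2 0.33, SE 0.0751, adjusted p = 0.0058), while its overlapping neighbour NUP62 was 4848 in DD and 4580 in Parental and did not pass (log2 0.08, adjusted p = 0.459). ATF3 had 1403, 1549 and 1325 in DD and 1270, 1376 and 1213 in Parental. These ranges overlap (log2 0.15, 95% interval -0.04 to 0.33, adjusted p = 0.218).

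The overexpression and DD comparisons share no library, so their calls can be set beside each other. Of the 10 genes, 7 rose with ZC3H7A and fell in DD (ATF4, DDIT3, CEBPB, CEBPG, TRIB3, CHAC1 and ASNS), as did 5.82% of the 16162 genes tested in both. SESN2 joins these 7 for ZC3H7B, which makes 8 that rose with ZC3H7B and fell in DD, as did 6.3% of genes. ATF5 rose with ZC3H7A and also rose in DD, as did 7.91% of genes, and rose with ZC3H7B and in DD, as did 6.84%. The sizes did not mirror each other gene by gene: DDIT3 had a small change with ZC3H7A (0.17) and the most negative one in DD (-1.74), whereas CEBPB had 1.39 with ZC3H7A and -0.78 in DD.

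**Figure D3:**
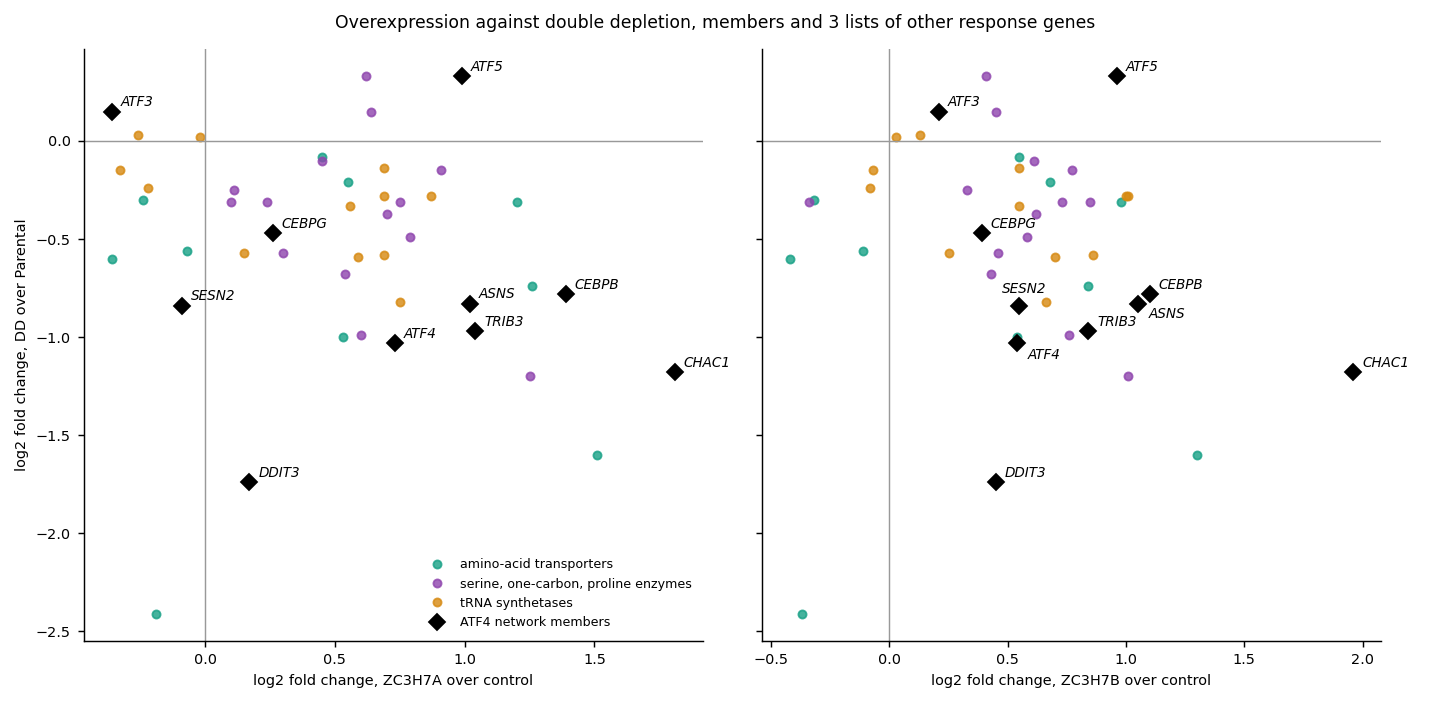
Log2 fold change in DD over Parental (vertical) against ZC3H7A over control (left) and ZC3H7B over control (right). Black diamonds are the 10 genes, and coloured points are tested amino-acid transporters, serine, one-carbon and proline enzymes and tRNA synthetases. The lower right area, higher with overexpression and lower in DD, holds 7 of the 10 genes on the left and 8 on the right.

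The other genes of the response were read from lists of named genes. Of all tested genes, 34.7% rose and 41.2% fell with ZC3H7A, and 32% rose and 37.6% fell with ZC3H7B. In DD 14.7% rose and 14.8% fell. Amino-acid transporters, which bring in substrates for the response, rose in 6 of 10 tested genes (SLC7A3 of the list was too low to test) and fell in 2 with ZC3H7A (median log2 0.49), rose in 6 and fell in 3 with ZC3H7B (0.54), and fell in 9 with none rising in DD (-0.58). The glycine transporter SLC6A9 averaged 1149 in ZC3H7A, 990.6 in ZC3H7B and 400.2 in control cells, and 506.4 in DD against 1542 in Parental (log2 -1.60). The cystine transporter SLC7A11 had the largest fall among the transporters in DD, to 199.3 against 1092 in Parental (log2 -2.41, adjusted p = 3.27e-06), but with overexpression it averaged 596.3 in ZC3H7A, 518.1 in ZC3H7B and 665.4 in control cells, which was no call for ZC3H7A (adjusted p = 0.253) and a fall for ZC3H7B (adjusted p = 0.0406). Of the 10 transporters, 5 rose with ZC3H7A and fell in DD (SLC7A5, SLC3A2, SLC7A1, SLC1A5 and SLC6A9), against 5.82% of all genes tested in both. The glutamine transporter SLC38A2, picked after its values were seen, fell in each comparison (log2 -0.36 with ZC3H7A, -0.42 with ZC3H7B and -0.60 in DD).

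Enzymes of serine, one-carbon and proline metabolism rose in 12 of 14 genes with none falling with ZC3H7A (median log2 0.61), rose in 13 and fell in 1 with ZC3H7B (0.59), and rose in 1 and fell in 9 in DD (-0.31). PYCR1, which makes proline, averaged 1454 in ZC3H7A, 1229 in ZC3H7B and 610.6 in control cells, and 893.8 in DD against 2062 in Parental (log2 -1.20). SHMT2, the mitochondrial serine hydroxymethyltransferase, was 5117 in DD and 10218 in Parental (log2 -0.99). ALDH18A1, an earlier step of proline synthesis, was the gene that rose in DD (log2 0.33, adjusted p = 0.027). Of the 14 enzymes, 8 rose with ZC3H7A and fell in DD, against 5.82% of all genes tested in both. The cytosolic tRNA synthetases rose in 8 and fell in 3 of 12 with ZC3H7A (median 0.57), rose in 9 with none falling with ZC3H7B (0.55), and fell in 8 with none rising in DD (-0.28). WARS, for tryptophan, rose to 5683 with ZC3H7A and 6230 with ZC3H7B, against 3100 in control cells, and TARS, for threonine, was lower with ZC3H7A than with ZC3H7B (6694 and 8792, log2 -0.39). Of the 12 synthetases, 7 rose with ZC3H7A and fell in DD, beside the same 5.82%.

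Other ATF4 or DDIT3 targets were more mixed: 12 of 21 rose and 7 fell with ZC3H7A (median log2 0.24), 11 rose and 5 fell with ZC3H7B (0.15), and 1 rose and 13 fell in DD (-0.34). The lists share some genes: CTH is also counted among the enzymes, JDP2 among the other bZIP genes and PPP1R15A among the eIF2 genes. EIF4EBP1, which binds the cap-binding protein eIF4E, averaged 5170 in ZC3H7A, 4154 in ZC3H7B and 1929 in control cells (log2 1.42 with ZC3H7A). STC2, a secreted glycoprotein, was 1009 in DD and 3177 in Parental (log2 -1.65), and the tRNA exporter XPOT fell there as well (-1.25), although it was 7223 in ZC3H7A, 6942 in ZC3H7B and 7230 in control cells. The hormone FGF21 averaged 44.4 in ZC3H7A, 126.7 in ZC3H7B and 7.46 in control cells. Every control library lay below the filter value of 10, so FGF21 was tested only because the overexpression libraries were high. Its log2 differences from control (2.43 and 3.92) are therefore descriptions, though the counts of rises above include it. FGF21 was lower with ZC3H7A than with ZC3H7B (log2 -1.49, limma adjusted p = 3.69e-06). The activin subunit INHBE averaged 152.9 in ZC3H7A, 515.5 in ZC3H7B and 62.5 in control cells. It rose with each protein (log2 1.28 and 3.03) and less with ZC3H7A (difference -1.75, adjusted p = 1.77e-07). A pair of genes on that list was picked after their values were seen. The DDIT3 target TNFRSF10B, a death receptor, fell with both proteins (log2 -0.53 and -0.34) and rose in DD (0.46). GDF15, a secreted stress cytokine, fell with both proteins (35.1 in ZC3H7A, 31.7 in ZC3H7B and 161 in control cells).

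Genes upstream of ATF4 and genes of other stress branches were counted in the same way. Beside these counts, 34.7% of all tested genes rose and 41.2% fell with ZC3H7A. With ZC3H7B 32% rose and 37.6% fell, and in DD 14.7% rose and 14.8% fell. Of 15 genes for eIF2 kinases, eIF2 and its exchange factor and phosphatase, 8 rose and 6 fell with ZC3H7A, 8 rose and 7 fell with ZC3H7B, and 1 rose and 1 fell in DD. None of the 15 rose with either protein and fell in DD. Over all genes tested in both, 5.82% did so for ZC3H7A and 6.3% for ZC3H7B, so this count is near those shares. The phosphatase subunit PPP1R15A, which removes phosphate from eIF2, was higher with both proteins (1620 in ZC3H7A, 2071 in ZC3H7B, 1193 in control cells), and IMPACT, an inhibitor of the amino-acid-sensing kinase GCN2, was lower with both (833.4, 845.4 and 1783). With ZC3H7A, the eIF2 subunit gene EIF2S3 fell (log2 -0.55) and EIF2B2 of the exchange factor rose (0.60). The eIF2 kinase gene EIF2AK2 fell with ZC3H7B (-0.89). The means of these genes moved the same way with the other protein. EIF2S3 averaged 5326 in ZC3H7A, 6992 in ZC3H7B and 7809 in control cells. In the same order, EIF2B2 averaged 1582, 1542 and 1043, and EIF2AK2 averaged 2414, 2216 and 4102. In DD, EIF2S1 rose (0.33) and the kinase gene EIF2AK4 fell (-0.23). Other bZIP and C/EBP-named genes rose in 9 and fell in 11 of 25 with ZC3H7A, rose in 11 and fell in 10 with ZC3H7B, and rose in 6 and fell in 5 in DD. Of the C/EBP-named genes of that list, CEBPD averaged 525.3 in ZC3H7A, 313.9 in ZC3H7B and 233.9 in control cells. CEBPA was also higher with both proteins (373.4, 307.7 and 223.2), whereas CEBPZ was lower with both (850.4, 1165 and 1624). JUN, another gene of that list, was lower with both as well (6040, 8215 and 9851). Of 16 genes of the ATF6 and IRE1 branches of the unfolded protein response, 6 rose and 7 fell with ZC3H7A, 3 rose and 8 fell with ZC3H7B, and 4 rose and 5 fell in DD. Of these 16, 3 rose with ZC3H7A and fell in DD, against 5.82% of all genes tested in both. The endoplasmic reticulum chaperone HSP90B1 fell with both proteins (log2 -1.06 and -0.68), as did the cochaperone DNAJC3 (-0.93 and -1.05). HERPUD1 of the same list went the other way and rose with both proteins (log2 0.51 with ZC3H7A).

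**Figure D4:**
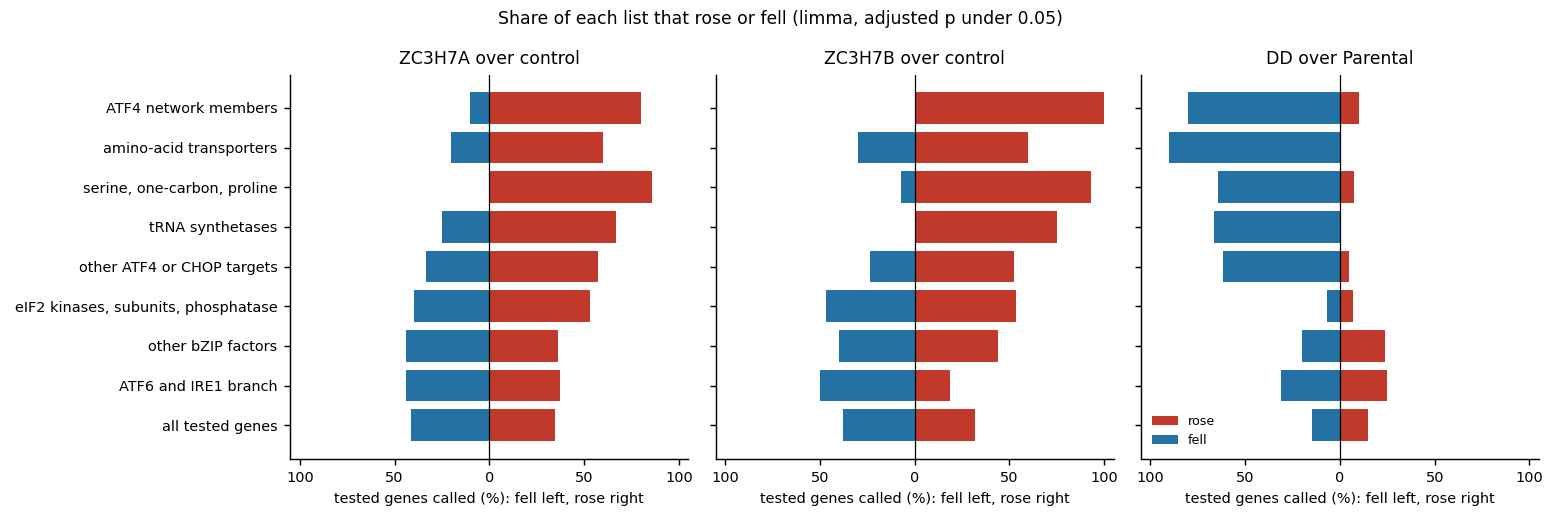
Share of tested genes of each list that rose (red, right of 0) or fell (blue, left of 0), in percent, for ZC3H7A over control, ZC3H7B over control and DD over Parental. The bottom row is all tested genes (34.7% rose and 41.2% fell with ZC3H7A). The 10 network genes stand at 8 and 1 of 10 with ZC3H7A, 10 and 0 with ZC3H7B, and 1 and 8 in DD.

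Close relatives of the targets had calls of their own. TRIB1, a relative of TRIB3, rose with both proteins (log2 0.89 with ZC3H7A, 0.44 with ZC3H7B), whereas TRIB2 fell with both (-0.48 and -0.18), and both fell in DD (-0.38 and -0.72). The sestrins SESN1 and SESN3 fell with ZC3H7A (-0.88 and -0.79) and with ZC3H7B (-0.40 and -1.47), while in DD SESN1 rose (0.28) and SESN3 did not pass (-0.26, adjusted p = 0.0501). CHAC2, picked after its values were seen and known as the other cytosolic glutathione cyclotransferase, was 381.7 in ZC3H7A, 496.8 in ZC3H7B and 586 in control cells, and 266.5 in DD against 245.3 in Parental (adjusted p = 0.49).

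Since the study concerns codons, the 10 genes were placed by the share of their codons that end in A or T, taken from the longest complete coding sequence in GENCODE 29. Across coding genes, the median log2 fold change ran from 0.38 in the 10% of genes with the lowest share to -0.75 in the 10% with the highest for ZC3H7A, and from 0.23 to -0.61 for ZC3H7B. In DD it ran from 0.05 to 0.11. The 10 genes ran from 4.6% to 58.3%, and none fell in the bin with the highest shares, 63.6% to 77.7%. CEBPB had a share of 4.6%, below all but 0.1% of coding genes, SESN2 21.0%, CHAC1 25.4%, ATF5 and TRIB3 29.1% each, ATF4 38.5%, ATF3 38.7%, CEBPG 46.7%, DDIT3 48.4% and ASNS 58.3%. The median of all 18281 coding genes was 39.3%, and 7 of the 10 lay below it.

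ASNS lay far above this trend. It belongs to the bin of 1302 genes with shares from 58.1% to 63.6%, whose median log2 fold change was -0.45 with ZC3H7A and -0.36 with ZC3H7B, and it was higher than 99.5% and 99.8% of that bin. CEBPB, with the lowest share, was higher than 95.5% of its bin with ZC3H7A, and CHAC1 was higher than 99.1% of its bin. ATF3 and SESN2 with ZC3H7A were lower than most of theirs, above only 16.6% and 23.6%. With the trend removed from each library, the ZC3H7A log2 fold changes were 0.92 for CEBPB, in place of 1.39, 1.38 for ASNS, in place of 1.02, 1.47 for CHAC1 and 0.56 for ATF4. In DD, removing the trend left ATF4 at -1.01, DDIT3 at -1.73 and ASNS at -0.86.

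**Figure D5:**
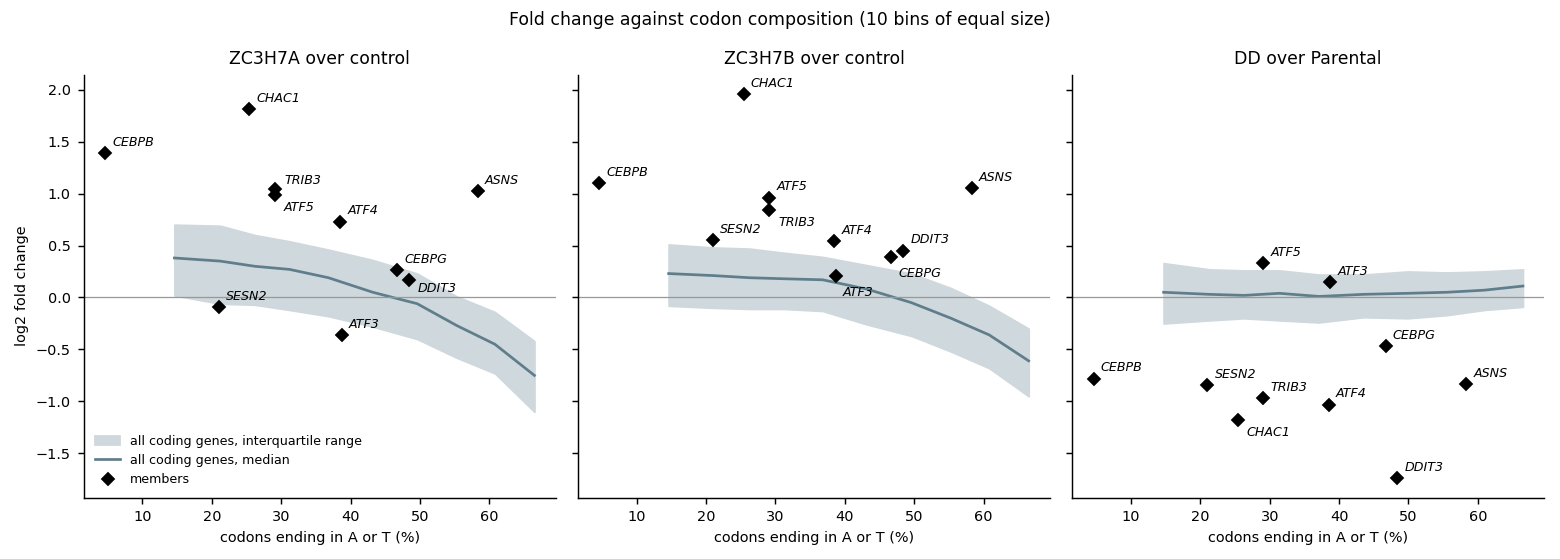
Log2 fold change against the percent of codons ending in A or T, for ZC3H7A over control, ZC3H7B over control and DD over Parental. The line is the median and the band the interquartile range of coding genes in 10 bins of equal size, and black diamonds are the 10 genes. ASNS, at 58.3%, lies at 1.02 where the line is near -0.45 with ZC3H7A, and 8 of the 10 genes lie below the band in DD.

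Per kilobase of annotated exon, which allows levels to be compared between genes, ATF4 had the highest level in every group: 6730 in ZC3H7A, 5883 in ZC3H7B, 4051 in control, 3889 in DD and 7959 in Parental. ASNS and CEBPG came next, at 2898 and 1713 in ZC3H7A, 2951 and 1866 in ZC3H7B, 1426 and 1426 in control, 1251 and 901 in DD, and 2230 and 1255 in Parental. CHAC1 was the lowest of the 10 in every group, at 121, 134 and 34.2 in ZC3H7A, ZC3H7B and control cells and at 43.5 and 99.0 in DD and Parental. These levels are per kilobase of the union of exons, not of the isoforms in these cells.

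The genes whose pattern was most like that of ATF4, CHAC1 and DDIT3 were found by Pearson correlation over the 15 libraries after subtracting each experiment's mean, among 11769 genes with a mean of at least 100 in each experiment. Libraries of a group share their condition, so these values are descriptions. The 5 closest to ATF4 were CS (r = 0.991), RGMB (0.990), RPL14P1 (0.989), RPS4X (0.988) and MZT2A (0.983). Among the network TRIB3 came closest at 0.966 (rank 54 of 11769), ahead of ASNS at 0.910 (rank 269). For CHAC1 they were NABP2, YBX1, ZSCAN18 and ZNF329 (0.982 each) and the tRNA synthetase YARS (0.981), with ASNS at 0.978 (rank 7) and CEBPB at 0.967 (rank 24). For DDIT3 they were RAC1 (0.983), PINK1 (0.972), RBMS2 (0.971), POLE3 (0.970) and C1orf233 (0.969). SESN2 was the network gene closest to DDIT3 (0.856), at rank 294. ATF3 was the only network gene with a negative correlation to ATF4 (-0.378).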

How the data were processed

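Poly(A) RNA-seq of 15 HEK293-derived libraries, 3 in each of 5 groups, was analysed from the deposited table of normalized counts. The authors' tools, per the submitters' processing notes, include STAR 2.7.10b as well as HTSeq and DESeq2, and the build is hg19; their roles, the strand setting and the annotation are not given in the sources used here. The deposited signal values are reads divided by a factor per library: 100% of values lay within 0.01 reads of a whole multiple, so whole reads were recovered. The 4 rows with repeated names were left out. Genes that reached 10 in 3 or more libraries of a fit were tested on log2(value + 1) with limma 3.58.1 in R 4.3.3, two-sided, with Benjamini-Hochberg adjustment over all genes tested and a threshold of 0.05. The 9 overexpression libraries shared 1 fit and the 6 DD and Parental libraries another. edgeR 4.0.16 and DESeq2 1.42.0 on the recovered reads, other pseudocounts, scalings and filters, and left-out libraries were alternatives. The fit was tested on simulated data with independent libraries and the same spread setting for every gene. That setting holds no library that stands apart, so it cannot show how the fit handles such libraries. The named genes were all 10 members and, of each list in each comparison, genes from among the 3 called ones with the lowest adjusted p. The 10 genes and the lists were chosen with earlier results of these data known. Exon lengths and codons came from GENCODE 29, matched by name, and promoters from RefSeq; no coordinates were carried between genome builds.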

Additional observations from a re-analysis of the deposited data

How the results depend on the processing

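Of 630 values of the 10 genes under alternatives, 607 kept their side of the threshold, 18 lost the call and 5 gained one. Of called values, 0 changed sign. Between ZC3H7A and ZC3H7B, values without a call crossed 0: ATF5 (0.02) ran from -0.06 to 0.07 and ASNS (-0.03) from -0.06 to 0.04. The alternatives that changed a call, other than the replicate block, stand beside each gene in the report. The number of the 10 genes that fell with ZC3H7A was 1, and 2 with equal library totals and with the codon trend removed, with SESN2 as the second gene. Leaving out 1 library gave 1 to 2, with 2 without ZC3H7A replicate 1. Equal totals moved the median of all genes with ZC3H7A from -0.07 to -0.18. The cause of these changes was not tested. Across all settings, 6 to 8 of the 10 rose with ZC3H7A, 9 to 10 rose with ZC3H7B, and 1 rose and 8 fell in DD. Over all genes, 2715 rose in DD; leaving out 1 library gave 1560 (without DD replicate 1) to 3563 (without Parental replicate 3). Same-numbered libraries correlated from -0.273 to 0.72 in their deviations from the group means, and differently numbered ones from -0.723 to 0.557. Between ZC3H7A and ZC3H7B cells the same-numbered values were 0.538 for replicate 1, 0.0757 for replicate 2 and 0.72 for replicate 3. Whether the numbers mark libraries handled together was not tested. With the replicate number as a block, 7 of the 10 genes rose and 1 fell with ZC3H7A, where DDIT3 lost its call (log2 0.17, adjusted p = 0.0595), 10 rose with ZC3H7B, and 1 rose and 8 fell in DD. Depth limits CHAC1 most, at 35 reads in 1 DD library.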
